A study of Mus musculus with 2 samples.

Results

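The SoxF, ETS and Tal1 transcription factors of retinal endothelial cells were followed through 2 droplet libraries of single cells, 1 from mice at postnatal day 6 (P6) and 1 from mice at P15. The members were 10 genes taken by symbol: the 3 SoxF genes Sox7, Sox17 and Sox18, the 6 ETS genes Erg, Fli1, Ets1, Ets2, Elk3 and Etv6, and the basic helix-loop-helix gene Tal1. Each of the 10 symbols matched 1 gene identifier, the same one at both ages, among 22734 identifiers counted at P6 and 21785 counted at P15.

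The cells came from the retinas of wild-type C57BL/6 mice and were sorted by FACS as positive for CD31, found on endothelium, and negative for CD45, found on blood cells, and how many animals went into each library is not stated in the sources used here. A unique molecular identifier (UMI) marks each captured mRNA, so that a count of UMIs is a count of molecules. The filter stated in the study, as read here, left 1424 P6 cells with 7648189 UMIs (median 4986 per cell) and 1644 P15 cells with 7371443 UMIs (median 4214 per cell). Cluster names came from the cell list behind the original clustering. They were at hand for 1560 P6 cells and for 438 P15 cells, the first on that list. Of these 1399 and 409 also passed the filter, so the filter as read here is not exactly the one behind the list. No age had a replicate library, and a difference between P15 and P6 cannot be told apart from a difference between these libraries.

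Levels are given as counts per 1000000 UMIs (CPM), with no division by gene length because each UMI stands for a captured molecule. Brackets hold exact 95% intervals, from Poisson counts for levels, from the conditional binomial for ratios and by Clopper-Pearson for shares of cells, and they cover counting error only. A gene was said to have risen or fallen where its ratio was at least 1.5 or at most 0.6667 with at least 50 UMIs over both groups.

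The sorted cells carried the label's markers. All 7 endothelial markers were found among cells that passed the filter, at a summed 9777 CPM at P6 and 15177 CPM at P15, and Cldn5, a tight junction gene, was the most abundant at 5584 and 9955 CPM. UMIs of both Xist and a Y-linked gene, a sign of mixed-sex doublets, stood in 9 of the P6 cells (0.632%) and 12 of the P15 cells (0.730%). These cells were kept, no doublet caller was run, and same-sex doublets are not covered by this count. The libraries shared 7 barcode sequences.

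SoxF proteins bind DNA through an HMG box and act partly redundantly in building arteries, veins and lymphatic vessels, and Sox17 is best known for its part in arterial identity. ETS factors share a winged helix-turn-helix domain that recognises the core GGAA, which stands in the control regions of most genes that are specific to endothelium. Tal1 pairs with E proteins on E-boxes and is needed for blood and for the remodelling of early vessels.

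Between P6 and P15 the SoxF genes moved apart. Sox18 fell, Sox17 rose, and the level of Sox7 lay close to its P6 value. Sox17 (ENSMUSG00000025902.13) lies on chr1:4490931-4497354 of GRCm38 on the minus strand. It stood at 248 CPM (237-260) at P6 and 509 CPM (492-525) at P15, a ratio of 2.05 (1.94-2.17) from 1900 and 3749 UMIs. Sox18 (ENSMUSG00000046470.5), mutated in ragged mice with sparse coats and lymphatic defects, lies on chr2:181669836-181671640 on the minus strand. Its level was 466 CPM (451-482) at P6 and 125.5 CPM (117.5-133.8) at P15, 3.72-fold lower (3.455-3.999), from 3566 and 925 UMIs. Sox7 (ENSMUSG00000063060.6), the third SoxF gene, lies on chr14:63943673-63950732 on the plus strand and had 65.2 CPM (59.6-71.2) and then 71.0 CPM (65.0-77.3), a ratio of 1.09 (0.960-1.23).

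Among the 10 members 3 rose (Sox17, Erg and Ets2), 1 fell (Sox18) and 6 did not pass the fold. Of all 10972 genes with enough UMIs 18.8% rose and 11.8% fell, and the count of members is no result beside these shares. The median log2 ratio of the members was 0.11 against 0.12 over all genes. Ranked by ratio among 10971 genes, Sox18 had 257 below it and Sox17 had 745 above it. Scaling by the median ratio of genes takes out the shift of 0.12 and gave 1.88 for Sox17 and 0.247 for Sox18, with the same calls for these genes.

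The opposite shifts exchanged the leading SoxF transcript. Sox18 gave 59.8% of the summed SoxF UMIs at P6 (58.5-61.0) and 17.8% at P15 (16.8-18.9). Sox17 gave 31.85% (30.7-33.1) and then 72.1% (70.9-73.4), and Sox7 8.37% (7.68-9.10) and then 10.1% (9.26-10.9). The sum over the 3 genes moved far less, from 779.9 CPM (760.3-800.0) to 705 CPM (686-724.5).

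Shares of cells that held each transcript moved with the levels. Cells were thinned to 2000 UMIs each so that depth was equal, which left 1411 P6 and 1472 P15 cells and dropped 13 and 172 that were shallower. Cells with a Sox18 and no Sox17 UMI made up 35.4% at P6 (32.9-38.0) and 8.36% at P15 (6.99-9.89). Cells with a Sox17 and no Sox18 UMI went from 11.3% to 39.7%. At this depth the mean was 0.511 Sox17 UMIs per P6 cell and 0.257 Sox18 UMIs per P15 cell, so a cell with 0 UMIs of a transcript may still hold it. Both transcripts were found together in 20.1% and 13.9% of cells, and no SoxF transcript was found in 30.3% and 34.1%.

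Within clusters Sox18 and Sox17 shifted in the same directions as over all cells. Sox18 was lower at P15 in each of the 6 clusters with at least 25 labelled cells at both ages, from 2.94-fold in Primitive cells (1.65-5.76) to 6.365-fold in Cap-Arterial cells (4.63-8.99). Sox17 was higher in the same 6 clusters, with ratios from 1.39 in Cap-Arterial (1.21-1.60) to 2.68 in Primitive cells (1.61-4.33). Primitive cells also differed in other markers between the ages. Photoreceptor and neural markers summed to 9.56 CPM at P6 and 403.5 CPM at P15 there, and pericyte markers to 1.06 and 234 CPM. Proliferation markers summed to 492.6 and 16.1 CPM, and the part of these markers in the ratios was not tested. The clusters were drawn from these same cells with Sox17 among the genes used to name them, so its values by cluster are a description. Labels predicted from other genes, with all members left out, gave 8 clusters, and Sox18 was lower and Sox17 higher at P15 in 8 of 8. The fall of Sox18 was then 1.65-fold in Capillary cells (1.19-2.33), against 3.52-fold with the study's labels, and 2.15-fold in Primitive cells (1.61-2.91). Sox7 differed between clusters: its ratio was 0.366 in Cap-Arterial cells (0.210-0.5997), 2.74-fold lower, and its interval included 1 in the other 5 clusters. With predicted labels Sox7 had 0.426 in Cap-Arterial (0.324-0.558), 0.381 in Arterial (0.146-0.896), 1.40 in Cap-Venous (1.15-1.71) and 2.42 in Capillary cells (1.07-5.605), the last from 12 UMIs at P6 and 16 at P15.

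The make-up of SoxF followed the cluster as well as the age. At P6 Sox18 gave the largest part in 8 of 9 clusters, from 49.0% in Cap-Arterial to 73.8% in Primitive cells, and Arterial cells were the exception with 65.6% Sox17 and 28.3% Sox18. With predicted labels Sox17 led at P6 in Arterial cells (189 against 93 UMIs of Sox18) and in Cap-Arterial cells (611 against 584 UMIs, with overlapping intervals), so in these the leading transcript was the same at both ages. At P15 Sox17 led in each of the 6 clusters with at least 25 labelled cells, from 57.1% in Primitive to 83.8% in Cap-Arterial cells. With predicted labels its lead was narrow in P15 Capillary cells, at 56 against 49 UMIs of Sox18, with overlapping intervals. The summed SoxF level was 2146 CPM in P6 Arterial cells (1946-2360), 1718 CPM in Cap-Arterial (1630-1809) and 385 CPM in Primitive cells, and it was 1186 CPM in P15 Cap-Arterial cells (1066-1315). In Cap-Arterial cells thinned to equal depth, Sox17 and Sox18 were found together in 50.9% of 161 P6 cells and 21.7% of 60 P15 cells.

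**Figure D1:**
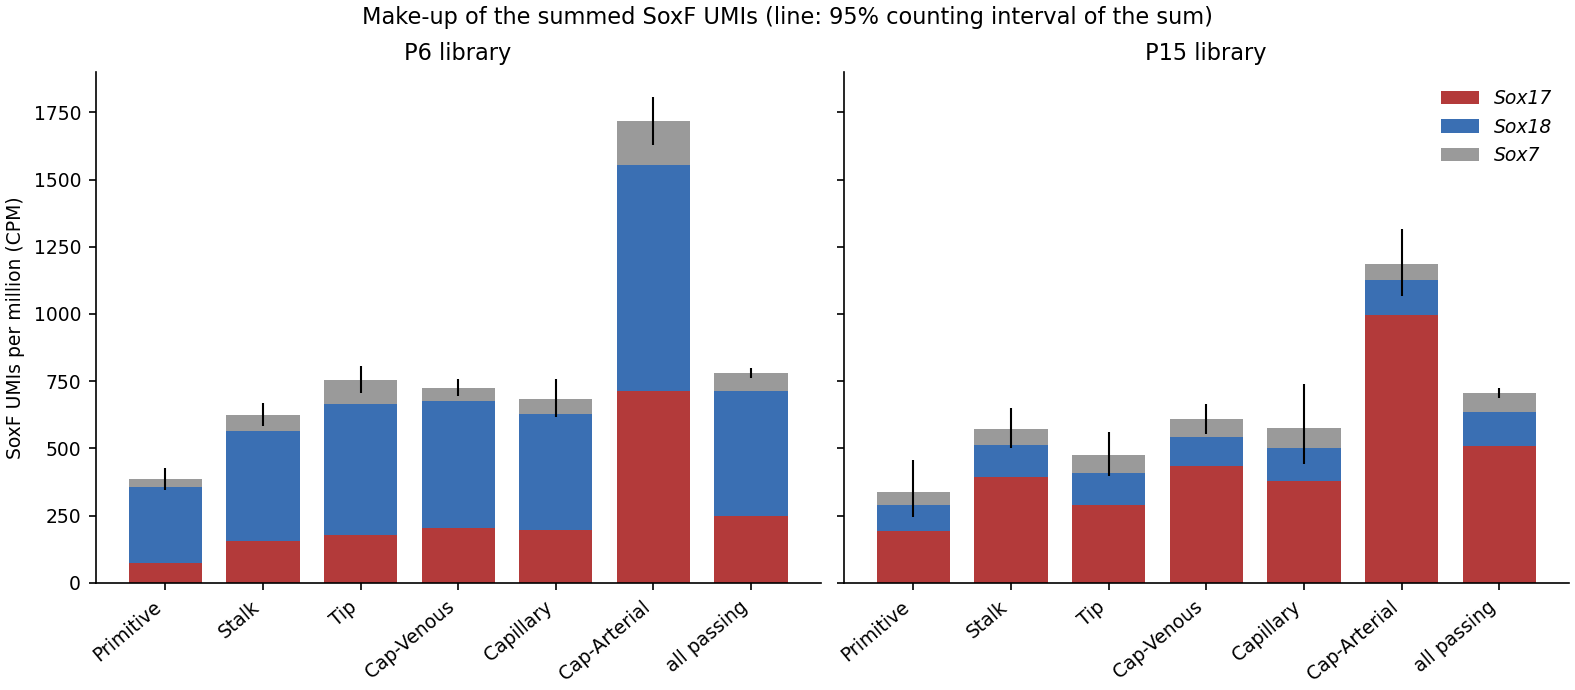
Stacked bars give the CPM of Sox17, Sox18 and Sox7 in 6 clusters and in all cells that passed the filter, with P6 and P15 in separate panels and a line for the 95% counting interval of the sum. Sox18 gives 59.8% of the sum at P6 and 17.8% at P15 over all cells that passed.

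Erg, Fli1 and Ets1 are the ETS factors most tied to endothelial identity. Erg (ENSMUSG00000040732.18), which keeps junction genes such as Cdh5 switched on, lies on chr16:95359169-95586593 on the minus strand of GRCm38. Fli1 (ENSMUSG00000016087.13), its closest relative, lies on chr9:32422204-32542861 on the minus strand. Ets1 (ENSMUSG00000032035.15), the founder of the family, lies beside it on chr9:32636221-32757820 on the plus strand. Ets2 (ENSMUSG00000022895.14) is a close relative of Ets1 and lies on chr16:95702075-95721051 on the plus strand near Erg. Elk3 (ENSMUSG00000008398.15), a ternary complex factor that can repress its targets, lies on chr10:93247414-93311135 on the minus strand. Etv6 (ENSMUSG00000030199.16), a repressor with a pointed domain, lies on chr6:134035700-134270158 on the plus strand. Exons of Sox17, Elk3 and Etv6 overlap those of a gene on the opposite strand (Gm37587, Cdk17 and Gm17089), and since the strand used in counting is not given in the sources used here, UMIs of such partners cannot be told apart with certainty.

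Several ETS genes are themselves under ETS control, so the 250 bases before annotated starts were read from RefSeq on GRCm38.p6, where 5 members (Erg, Ets2, Elk3, Etv6 and Tal1) had 8 such windows. Those of Erg, which rose, and of Elk3, which had the lowest age ratio among the ETS members, are shown 5′ to 3′ on the minus strand, with capitals for the ETS core GGAA or its complement TTCC. The windows at chr16:95586594-95586843, chr16:95530366-95530615 and chr16:95459349-95459598 stand before 3 starts of Erg, the last 2 of them inside the gene's span. The Elk3 window is chr10:93311160-93311409, and none of the 4 overlaps an annotated exon.
Erg, first start: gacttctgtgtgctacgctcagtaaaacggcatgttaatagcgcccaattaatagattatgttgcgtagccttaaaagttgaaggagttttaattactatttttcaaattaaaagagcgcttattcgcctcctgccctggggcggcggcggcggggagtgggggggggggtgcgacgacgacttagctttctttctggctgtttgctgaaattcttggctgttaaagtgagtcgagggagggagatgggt
Erg, middle start: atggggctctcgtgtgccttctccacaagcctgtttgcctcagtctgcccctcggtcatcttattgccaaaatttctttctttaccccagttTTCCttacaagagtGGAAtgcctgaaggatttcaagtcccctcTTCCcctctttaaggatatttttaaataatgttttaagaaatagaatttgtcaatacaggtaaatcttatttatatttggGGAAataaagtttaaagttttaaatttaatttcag
Erg, last start: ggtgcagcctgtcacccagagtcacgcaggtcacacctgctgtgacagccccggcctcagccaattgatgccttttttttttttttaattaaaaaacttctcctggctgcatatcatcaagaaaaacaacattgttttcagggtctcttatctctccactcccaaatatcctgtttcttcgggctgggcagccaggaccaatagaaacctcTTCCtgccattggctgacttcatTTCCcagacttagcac
Elk3: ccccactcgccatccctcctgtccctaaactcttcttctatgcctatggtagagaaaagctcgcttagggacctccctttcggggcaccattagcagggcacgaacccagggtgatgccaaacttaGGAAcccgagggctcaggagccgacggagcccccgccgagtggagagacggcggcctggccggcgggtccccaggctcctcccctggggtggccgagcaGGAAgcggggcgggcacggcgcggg
The first Erg window held 0 cores, the middle one 4, the last one 2 and the Elk3 window 2. Elsewhere Etv6 had 3, Tal1 had 4 and 3 in its windows, and Ets2 had 1. The core is common, since GGAA on either strand stood in 93.45% of 32851 windows of this length, with a mean of 2.91. The SOX core ACAAT, found in 27.7% of windows, stood in the last Erg window, which also held 2 E-boxes (CANNTG, found in 66.2%). A match describes the letters of a window and says nothing of binding.

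Among the ETS genes Erg and Ets2 rose with age, Ets1 was higher by less than the fold, and Fli1, Elk3 and Etv6 did not pass it. Erg went from 54.3 CPM (49.2-59.7) to 95.9 CPM (89.0-103), a ratio of 1.77 (1.56-2.0) from 415 and 707 UMIs. Ets2 went from 67.1 CPM (61.4-73.1) to 119.7 CPM (112-128), a ratio of 1.78 (1.60-1.99) from 513 and 882 UMIs. These neighbours on chromosome 16 thus had nearly the same ratio, and 89.25% of all tested genes had a lower ratio than Erg. Ets1, the most abundant of the members at both ages, had 587 CPM (570.3-605) and then 804 CPM (784-825), a ratio of 1.37 (1.32-1.42). Fli1 stood at 347.5 and 347.7 CPM, a ratio of 1.0 (0.947-1.06) that became 0.918 under median-ratio scaling. The ratio of Elk3 was 0.836 (0.780-0.897), from 234 to 196 CPM. Etv6, the least abundant member, had 20.4 and 21.7 CPM and a ratio of 1.06 (0.848-1.34), which was 0.977 under median-ratio scaling.

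Tal1 (ENSMUSG00000028717.12) lies on chr4:115056426-115071755 on the plus strand. It did not move past the fold, with 34.1 CPM at P6, 33.5 CPM at P15 and a ratio of 0.982 (0.822-1.17).

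**Figure D2:**
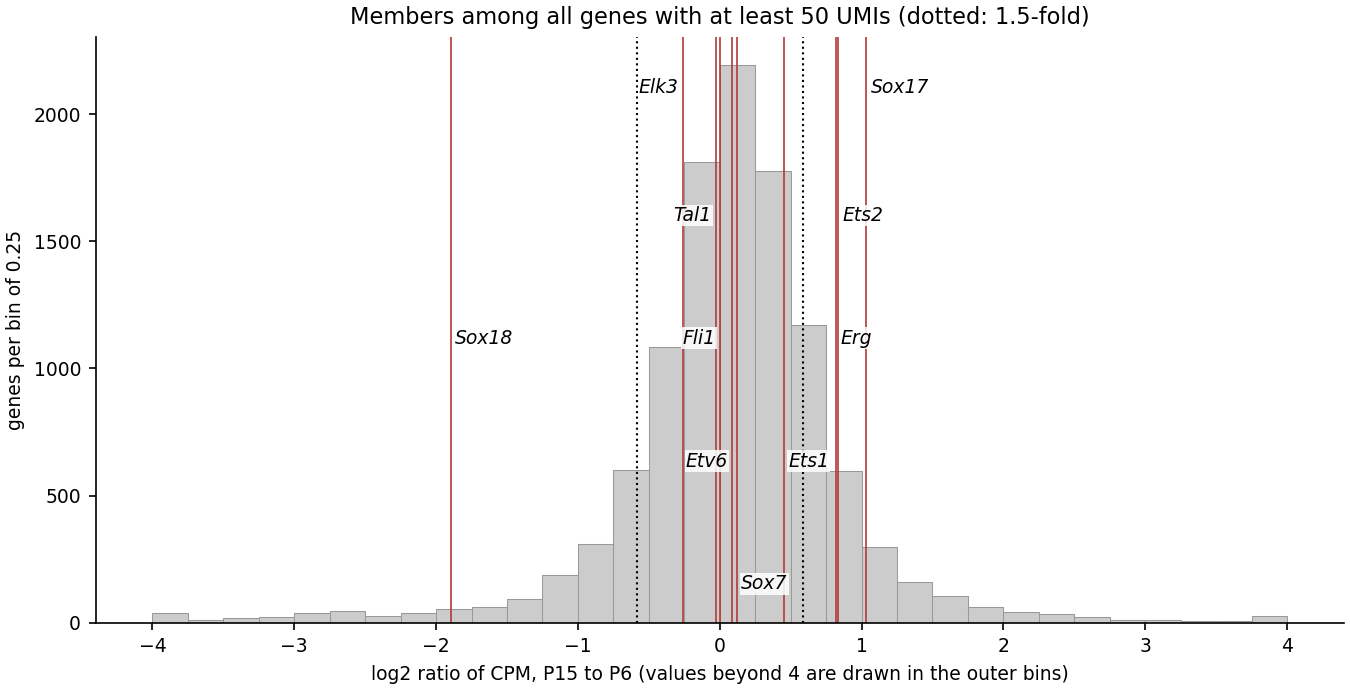
Bars count genes with at least 50 UMIs by log2 ratio of P15 to P6 in bins of 0.25, with values beyond 4 in the outer bins, red lines for the 10 members and dotted lines at 1.5-fold. Sox18 lies far to the left at a ratio of 0.269, and Sox17 is the member farthest to the right at 2.05.

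With the study's labels the age ratios of Fli1 and Ets1 within clusters spanned less than those of Erg and Ets2. Erg and Ets2 had fewer UMIs, and for each of them the intervals of the lowest and highest ratio overlapped. The ratio of Ets1 ran from 1.34 in Tip to 1.54 in Stalk cells, with the interval above 1 in 6 of 6 clusters, and from 0.928 in Arterial to 1.77 in Primitive cells over the 8 clusters of predicted labels. Ets2 ran from 1.18 in Cap-Arterial to 2.997 in Capillary cells, with 5 intervals above 1. Erg ran from 1.09 in Cap-Arterial to 1.97 in Primitive cells, with 3 intervals above 1, and with predicted labels 7 of 8 intervals were above 1. For Fli1 the range was 0.865 to 0.991 and each interval included 1, while predicted labels gave 0.739 in Proliferative to 1.17 in Primitive cells. Elk3 fell in Cap-Arterial cells, where its ratio was 0.522 (0.359-0.741), and had its highest ratio, 1.055, in Tip cells. With predicted labels Elk3 was below 1 in 8 of 8 clusters, with 0.825 (0.687-0.990) in Tip cells. Tal1 had a ratio of 2.37 in Capillary cells (1.09-4.90), from only 25 UMIs at P6 and 12 at P15, which was 1.815 (0.8498-3.88) with predicted labels, and its interval included 1 in the other 5 clusters. Etv6 had 24 UMIs in P6 and 2 in P15 Cap-Arterial cells, a ratio of 0.230 (0.0264-0.927), and 0.673 (0.383-1.19) with predicted labels. Over all genes tested within these clusters, from 14.8% in Cap-Arterial to 21.6% in Primitive cells rose, and from 12.7% in Cap-Venous to 23.2% in Primitive cells fell.

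**Figure D3:**
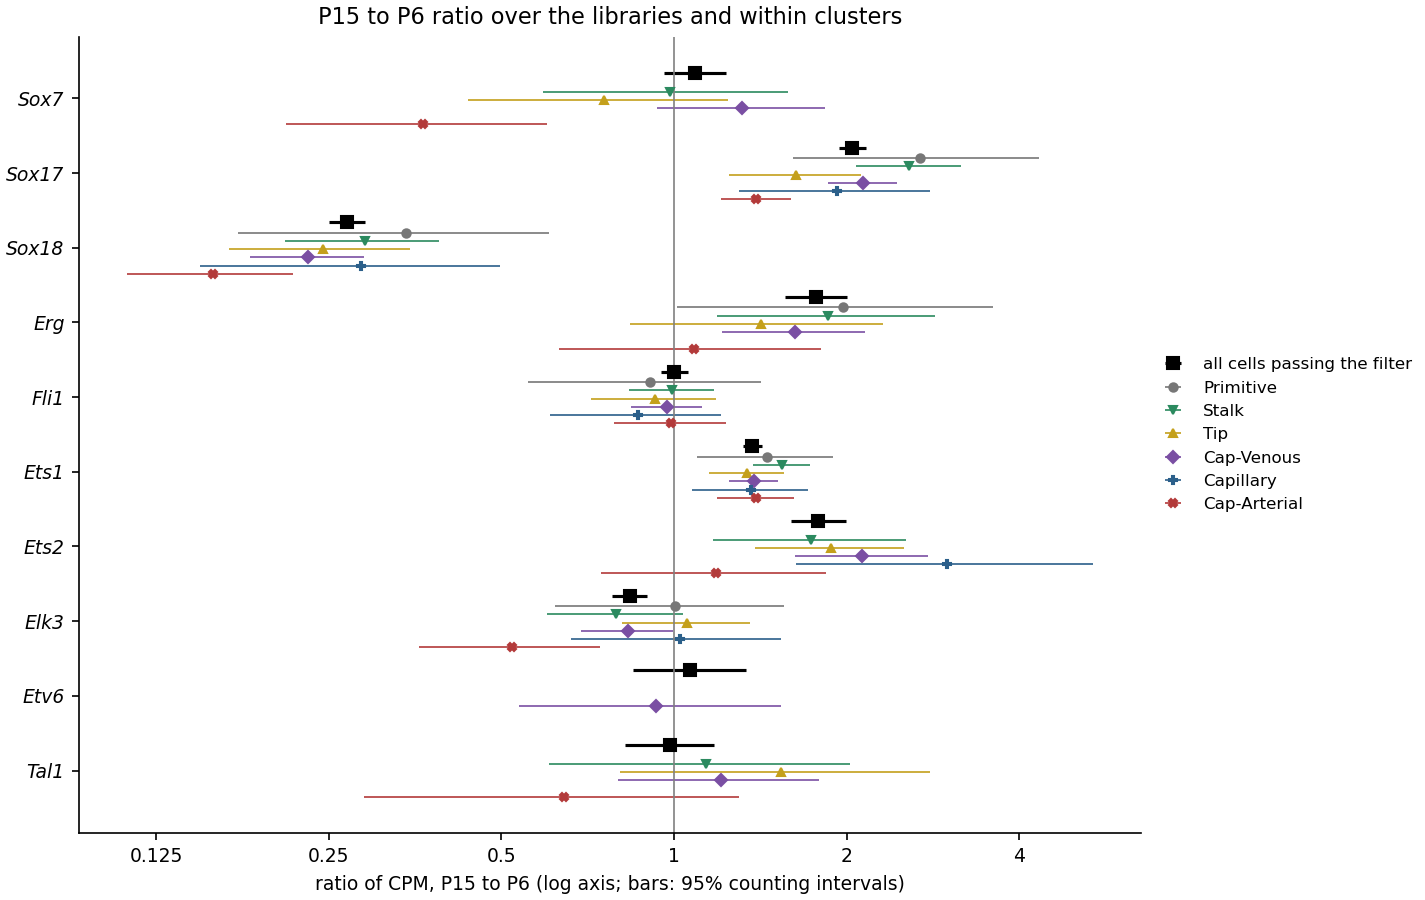
Ratios of P15 to P6 CPM are drawn on a log axis for each member, with a black square for all cells that passed the filter, coloured symbols for 6 clusters and bars for 95% counting intervals. Every drawn point of Sox18 lies below 1 and every drawn point of Sox17 above 1, from 1.39 to 2.68 in the clusters.

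The libraries also differed in sex and in markers of other cells. Cells with Xist and no Y-linked UMI were 17.3% of P6 and 5.84% of P15 cells. In those cells alone (246 and 96) Sox17 had a ratio of 2.31 (1.94-2.75), Sox18 was 3.86-fold lower, Erg had 2.32 (1.54-3.46), Ets2 1.84 (1.25-2.67) and Sox7 1.66 (1.12-2.42). In cells with Y-linked and no Xist UMIs (339 and 821) Sox17 had 1.92 (1.74-2.12), Sox18 was 3.97-fold lower, Erg had 1.59 (1.29-1.96), Ets2 1.60 (1.32-1.95) and Sox7 0.977. The 4 calls thus stood in either sex, and of these subsets Sox7 passed the fold only in the female cells.

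Pericyte markers summed to 10.85 CPM at P6 (5 of 6 found, Cspg4 at 0) and 267 CPM at P15 (6 of 6), with Rgs5 the most abundant at 8.76 and 241.6 CPM. Markers of Müller glia and astrocytes summed to 373 CPM (5 of 6 found) and 1235 CPM (6 of 6), mostly Glul at 366 and 1161 CPM. Photoreceptor and neural markers summed to 9.41 and 62.4 CPM (5 of 6 found, Neurod1 at 0 by the filter). Red blood cell markers summed to 22.6 CPM (3 of 5) and 172.6 CPM (4 of 5, Hbb-bt at 0 by the filter), with Hbb-bs at 12.9 and 105 CPM. Myeloid markers summed to 2.22 and 5.97 CPM, platelet markers to 47.3 and 33.4 CPM with Itga2b the most abundant, and lymphatic markers to 50.9 and 36.5 CPM with Flt4 the most abundant. Proliferation markers summed to 354 CPM at P6 and 42.05 CPM at P15. The part of these markers in the age ratios was not tested.

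Barcodes with markers of other cells also held some of these transcripts. In 66 P15 barcodes with pericyte markers (median 4058 UMIs, endothelial markers at 3111 CPM) each of the 10 members had a lower CPM than in P15 cells that passed the filter. Ets1 had 522 CPM (441-613.5) there. Sox17 had 63.9 CPM in them and Sox18 7.10 CPM. In 55 P6 barcodes with photoreceptor and neural markers (median 4967 UMIs) Sox18 had 19.2 CPM, Ets1 11.5 CPM and Sox17 3.84 CPM. The P6 pericyte barcodes were only 7, and in them Ets1 had 674 CPM (432-1003), Erg 56.2 CPM from 2 UMIs and Etv6 28.1 CPM from 1 UMI, which is not below the P6 cells.

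A further 26 P15 barcodes with red blood cell markers (median 7669 UMIs) held endothelial markers at 9060 CPM, and in them Sox18 was found in 38.5%, Erg and Ets2 in 34.6% each and Tal1 in 23.1%, with Tal1 at 35.2 CPM and Etv6 at 22.0 CPM, neither below its level in P15 cells. For 9 of 10 members the share in these barcodes overlapped with that in P15 cells, with Ets1 at 80.8%, Fli1 at 57.7%, Elk3 at 50% and Sox7 at 23.1%. Only Sox17 had a share below it, at 46.15% (26.6-66.6). These shares were read at full depth, and P15 cells were shallower, with a median of 4214 UMIs. By CPM Sox17, Ets1, Fli1, Elk3, Ets2 and Sox7 were below P15 cells with intervals apart. Ets1, for one, had 423 CPM (342-516) against 804 CPM (784-825). For Sox18, Erg, Tal1 and Etv6 the CPM intervals overlapped. Ambient RNA, doublets and misassigned cells cannot be told apart in these barcodes. Shares of cells with a UMI were also read beside the neural and pericyte barcodes. Sox17 was found in 55.0% of P6 cells and 73.0% of P15 cells at full depth, and in 31.4% and 53.6% after thinning, against 3.64% of the P6 neural barcodes and 21.2% of the P15 pericyte barcodes. Sox18 was found in 81.2% and 41.8% of cells, and in 55.6% and 22.3% after thinning, against 10.9% (4.11-22.3) of the neural and 3.03% of the pericyte barcodes. The shares of Sox17 and Sox18 moved as their CPM did. Ets1 was found in 87.5% and 88.8% (thinned 64.7% and 73.9%), Fli1 in 75.8% and 70.1% (thinned 47.4% and 46.8%), and Elk3 in 67.3% and 54.3% (thinned 38.1% and 33.5%). In the P6 neural barcodes these 3 ETS genes were found in 10.9%, 7.27% and 3.64%, and in the P15 pericyte barcodes Fli1 was found in 21.2% and Elk3 in 30.3%. Ets1 was found in 78.8% (67.0-87.9) of the pericyte barcodes, which overlaps with its share in P15 cells (87.2-90.3). Erg had 23.95% and 31.3% (thinned 11.3% and 16.8%), and Ets2 27.25% and 36.0% (thinned 13.04% and 19.3%). Sox7 and Tal1 were sparse, at 26.4% and 26.0% (thinned 12.1% and 12.3%) and at 16.8% and 13.1% (thinned 5.95% and 6.79%). Erg, Ets2, Sox7 and Tal1 were each found in 1.82% of the neural barcodes, and in 9.09%, 19.7%, 6.06% and 3.03% of the pericyte barcodes. Etv6 was found in 9.69% of P6 and 8.94% of P15 cells. Its share overlapped with the P6 neural barcodes, where 5.45% (1.14-15.1) held a UMI, and with the P15 pericyte barcodes, where 6.06% (1.68-14.8) did. These barcodes were few, so their wide intervals cannot show whether the share was above background. By CPM Etv6 was higher in P6 cells, at 20.4 (17.3-23.9), than in the neural barcodes, at 5.76 (1.19-16.8) from 3 UMIs. In the P15 pericyte barcodes it had 14.2 CPM (3.87-36.4), which overlapped with P15 cells.

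Across the P6 clusters the SoxF genes were highest in arterial cells and lowest in Primitive cells. Sox17 had 1407 CPM in Arterial (1246-1582), 714 CPM in Cap-Arterial (658-774) and 72.2 CPM in Primitive cells (56.1-91.5), a 19.5-fold range. Between these lay Venous (207), Cap-Venous (203), Capillary (197), Tip (177), Stalk (154) and Proliferative cells (122 CPM), where neighbours in the order overlapped. The Venous cluster held 42 P6 and 2 P15 labelled cells, so that its values stand for 1 library. Sox18 had its highest level in Cap-Arterial cells at 841 CPM (779.9-905), then in Arterial at 607 CPM (503.5-726), and its lowest in Primitive at 284.5 CPM, a 2.955-fold range. In between came Venous (552), Tip (489.7), Cap-Venous (472), Capillary (432), Stalk (412) and Proliferative cells (309 CPM), and of neighbours in this order only Cap-Arterial and Arterial, and Stalk and Proliferative, did not overlap. Sox7 ran from 163 CPM in Cap-Arterial through Arterial (132), Tip (88.5), Venous (77.3), Stalk (59.1), Capillary (55.5), Cap-Venous (50.7) and Proliferative (39.4) to 28.7 CPM in Primitive cells, and each neighbour in its order of 9 clusters overlapped although the extremes did not.

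Orders at P15 are over the 6 clusters with at least 25 labelled cells unless said otherwise. At P15 Sox17 was again high in arterial and low in Primitive cells, and Sox18 differed little among the labelled clusters. Sox17 had 994 CPM in Cap-Arterial (885-1113), 433 CPM in Cap-Venous, 395 CPM in Stalk, 378 CPM in Capillary, 288.5 CPM in Tip and 194 CPM in Primitive cells, and the 11 labelled Arterial cells had 1895 CPM (1529-2321). Sox18 ran only from 96.8 CPM in Primitive to 132 CPM in Cap-Arterial cells, and the intervals overlapped, but with predicted labels it ran from 61.2 CPM in Proliferative to 261.8 CPM in Capillary cells (13 and 49 UMIs). Sox7 ran from 48.4 to 75.7 CPM with overlapping intervals, while with predicted labels it ran from 30 CPM in Primitive (15.97-51.3) to 96.4 CPM in Tip cells (77.9-118), which did not overlap.

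At P6 the ranges of Ets1, Fli1, Elk3 and Erg over the clusters were narrower than those of the SoxF genes, and those of Ets2 (3.299-fold) and Etv6 (3.86-fold) were wider than that of Sox18. Ets1 at P6 was highest in Stalk at 718.5 CPM and lowest in Primitive cells at 367 CPM, a 1.96-fold range, and at P15 these were the ends of the 6 clusters, at 1108 CPM (1007-1217) and 533 CPM. The 14 Proliferative and 11 Arterial labelled cells were lower at P15, at 449 and 469 CPM, and with predicted labels Arterial cells were lowest at 330.6 CPM (246-435) against 637 CPM in Primitive cells. At P6 Venous (675), Capillary (667.5), Tip (612), Cap-Arterial (597), Cap-Venous (544), Proliferative (482.5) and Arterial cells (399.8 CPM) lay between, each overlapping with the next. Fli1 ran from 459 CPM in Capillary to 195 CPM in Primitive cells at P6, and from 438 CPM in Stalk to 177.5 CPM in Primitive cells at P15, with neighbours overlapping throughout. Ets2 stood out in Tip cells, the leading cells of sprouts, with 129.6 CPM at P6 (109-152.5), which did not overlap with the next cluster, Cap-Arterial at 83.7 CPM. From there Ets2 descended with overlapping neighbours through Venous (77.3), Capillary (63.1), Stalk (61.2), Cap-Venous (57.9), Proliferative (47.2) and Arterial (45.55) to Primitive cells (39.3 CPM). At P15 Ets2 was again highest in Tip cells at 243 CPM (189-307), but here it overlapped with the next cluster, Capillary at 189 CPM (115.5-292). Elk3 ran from 268 CPM in Capillary to 185 CPM in Primitive cells at P6, and from 278 CPM in Tip to 125.5 CPM in Cap-Arterial cells at P15, where the ends did not overlap at either age with the study's labels.

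Erg, Etv6 and Tal1 gave few UMIs in each cluster, so that their orders were loose. Erg at P6 ran from 86.0 CPM in Arterial to 46.3 CPM in Stalk cells, and even these extremes overlapped. Etv6 ran from 28.7 CPM in Cap-Arterial to 7.43 CPM in Primitive cells at P6. Tal1 had 51.4 CPM in Cap-Arterial and 47.8 CPM in Capillary cells, and 10.1 CPM (1.23-36.6) in Arterial cells. At P15 the intervals of these 3 genes overlapped between their highest and lowest clusters, but with predicted labels those of Tal1 did not, at 85.5 CPM in Capillary (48.9-139) and 25.4 CPM in Primitive cells (12.7-45.4).

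**Figure D4:**
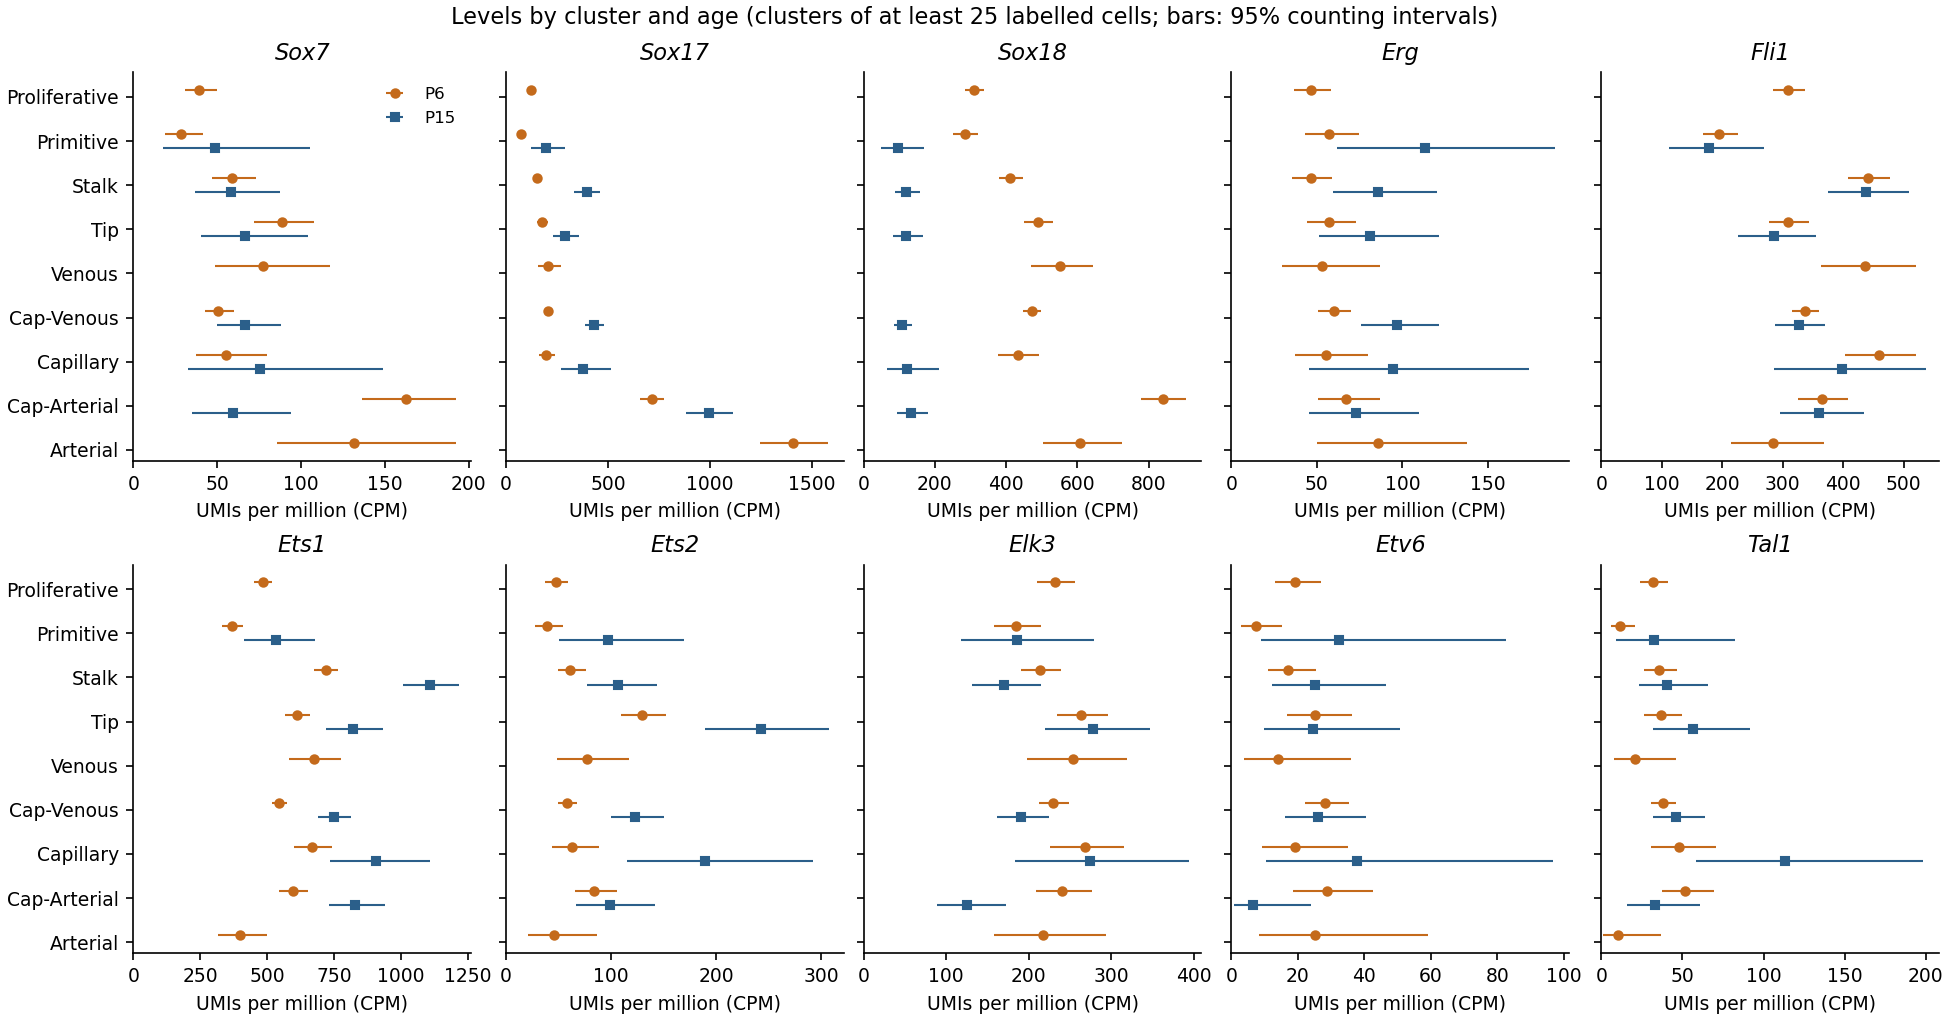
Each of 10 panels gives the CPM of a member on the x axis by cluster on the y axis, with orange circles for P6, blue squares for P15 and bars for 95% counting intervals, in clusters of at least 25 labelled cells. Sox17 reaches 1407 CPM in P6 Arterial cells, and Sox18 at P15 lies between 96.8 and 132 CPM in the labelled clusters drawn.

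Arterial identity was examined by setting Arterial and Cap-Arterial cells together (202 cells at P6) against Cap-Venous cells (414). At P6 the 3 SoxF genes were higher in arterial cells and no ETS gene passed the fold. Sox17 helped to name the arterial clusters, so its place among the higher genes was set by the naming. Of 10 members 3 were higher and 0 lower, against 13.2% of 7304 genes higher and 8.11% lower, and the members' median log2 ratio was 0.22 against 0.06 over all genes. Sox17 had 846.5 against 203 CPM, a ratio of 4.165 (3.74-4.64). Sox7 had 157 against 50.7 CPM, a ratio of 3.09 (2.44-3.91). Sox18 had 796 against 472 CPM, a ratio of 1.69 (1.54-1.84), and 1.29 in Arterial cells alone. Among the ETS genes the ratios ran from 0.996 for Etv6 to 1.32 for Ets2 (0.994-1.74), and Erg had 1.18 (0.884-1.57). Markers of Müller glia and astrocytes summed to 1604 CPM in Cap-Arterial and in Arterial cells and 252 CPM in Cap-Venous cells at P6, and to 2847, 3464 and 886 CPM at P15. Nearly all of this was Glul (1591, 1564 and 246 CPM at P6), while Slc1a3 and Gfap were at 0 in both arterial clusters at either age, and the part of this list in the ratios was not tested.

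At P15, with 79 arterial and 134 Cap-Venous cells, only Sox17 remained higher among the 8 members with enough UMIs. Elk3 was lower, and 10.2% of 3886 genes were higher and 8.96% lower, with a median log2 ratio of -0.09 for the members and 0.02 for all genes. Sox17 had 1120 against 433 CPM, a ratio of 2.58 (2.23-2.999). Elk3 had 125 against 191 CPM, a ratio of 0.654 (0.456-0.922), which was 0.755 (0.646-0.880) with predicted labels. Sox18 had 131 against 109 CPM, a ratio of 1.203 (0.820-1.745). Sox7 had 56.8 against 66.8 CPM, a ratio of 0.851 (0.481-1.45) from 20 and 51 UMIs. Erg had a ratio of 0.675 (0.403-1.09) and passed the fold downward under 4 of 9 alternatives with at least 50 UMIs, while Etv6 and Tal1 fell short of the 50 UMIs.

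With the study's labels the arterial ratio was lower at P15 than at P6 for several members, and for Erg, Etv6 and Tal1 the P15 ratio was near 1 with predicted labels. Dividing the P15 ratio by the P6 ratio gave 0.2755 for Sox7 (0.1565-0.485), 0.620 for Sox17 (0.518-0.744), 0.571 for Erg (0.331-0.983), 0.559 for Ets2 (0.345-0.908) and 0.637 for Elk3 (0.441-0.921). Etv6 gave the lowest value, 0.218 (0.0479-0.992), with only 2 and 20 UMIs at P15, and Tal1 gave 0.649 (0.308-1.365). For Sox18 it gave 0.713 (0.492-1.03), and for Fli1 and Ets1 1.06 and 1.01. Predicted labels take in 331 arterial and 651 Cap-Venous cells at P15. With them Sox7 had a ratio of 3.31 at P6 and 1.01 (0.799-1.28) at P15, Sox17 4.41 and 2.64 (2.46-2.84), and Sox18 1.62 and 1.37 (1.16-1.62). Erg had 1.05 and 1.02 (0.827-1.26), Ets2 1.21 and 0.818 (0.668-0.996), Elk3 1.097 and 0.755, Etv6 1.363 and 0.975 (0.624-1.49), and Tal1 1.12 and 1.045 (0.727-1.48). Fli1 went the other way, with 0.995 at P6 and 1.22 (1.10-1.35) at P15, and Ets1 had 0.982 and 0.977.

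**Figure D5:**
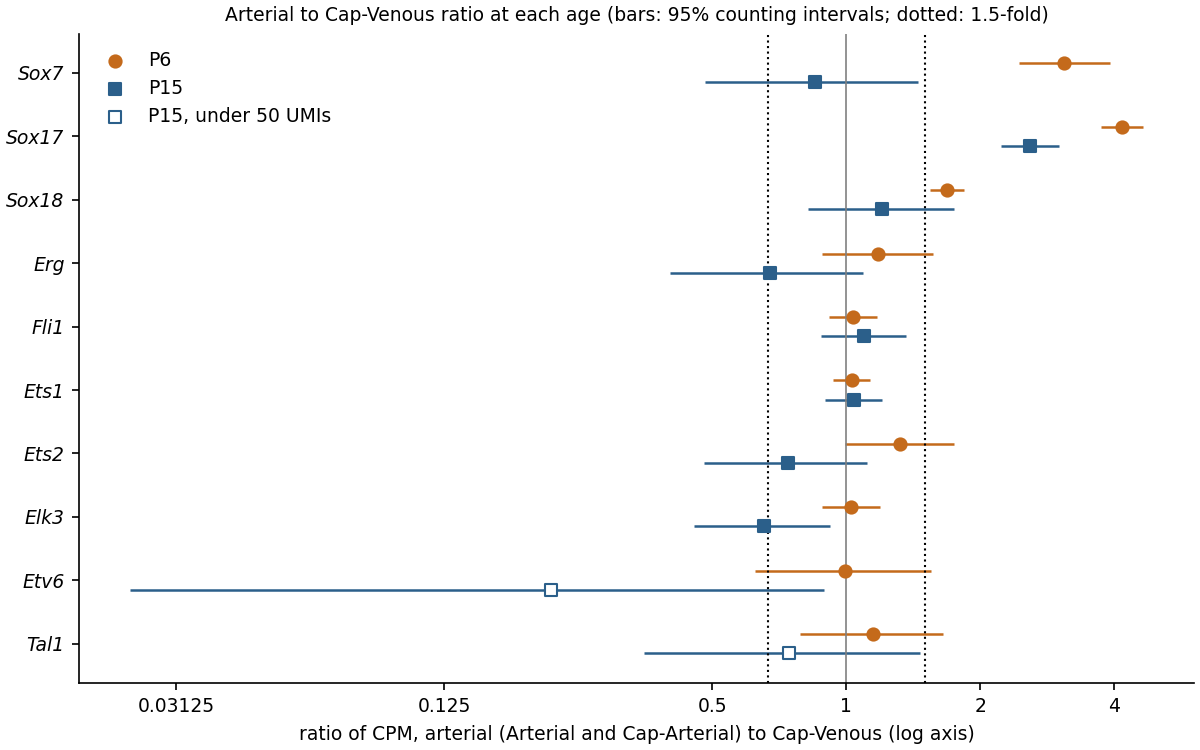
The ratio of arterial to Cap-Venous CPM is drawn on a log axis for each member, with circles for P6, squares for P15, open symbols where there were under 50 UMIs, bars for 95% counting intervals and dotted lines at 1.5-fold. Sox17 is above the line at both ages (4.165 and 2.58), and Sox7 only at P6 (3.09 and 0.851).

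Cycling cells held less SoxF mRNA as a share of their UMIs. Of 10 members 3 were lower and 0 higher in 198 Proliferative cells than in the other 1362 labelled P6 cells, against 13.5% of 9832 genes lower and 10.3% higher. The lower ones were Sox17 with a ratio of 0.471 (0.406-0.544), Sox7 with 0.564 (0.430-0.729) and Sox18 with 0.639 (0.582-0.701). The other cells took in the 202 Arterial and Cap-Arterial cells, where all 3 genes were highest. A comparison without these was not made. Primitive cells lay below Proliferative cells in Sox17, at 72.2 against 122 CPM. They were also lower in Sox7 (28.7 against 39.4 CPM) and Sox18 (284.5 against 309 CPM), with overlapping intervals. The median log2 ratio was -0.28 for the members and -0.05 for all genes. Ets2 had 0.676 (0.527-0.857), and passed the fold with predicted labels (0.644) and with each cell given the same weight (0.661), Ets1 0.835 (0.774-0.900), Fli1 0.889 (0.808-0.977) and Elk3 1.01. Proliferative cells were the deepest, with a median of 7954 UMIs, and at equal depth Sox7 had 0.679 and no longer passed the fold.

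Tip cells differed from Cap-Venous cells in Ets2 and Sox7. In 170 Tip cells against Cap-Venous cells Ets2 had a ratio of 2.24 (1.77-2.83) and Sox7 1.74 (1.33-2.28), so that 2 of 10 members were higher and 0 lower, against 6.55% of 7269 genes in each direction. The median log2 ratio was 0.00 for the members and 0.00 for all genes. Ets1 had 1.13 (1.03-1.23), Sox17 0.870, and Sox18 1.04. Sox7 was not highest in Tip cells, since both arterial clusters had more. Thinned to equal depth, 22.5% of Tip cells (16.4-29.5) and 11.1% of Cap-Venous cells (8.27-14.6) held a UMI of Ets2.

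Stalk cells, which trail the tip cells in a sprout, were close to Cap-Venous cells in most of these genes. In 230 Stalk cells 1 of 10 members was lower and 0 higher, against 5.27% of 7415 genes lower and 4.48% higher. That gene was Etv6 with a ratio of 0.6065 (0.366-0.972), which was 0.940 with predicted labels. Erg had 0.775, and 0.567 at equal depth, where it passed the fold. Ets1 had 1.32 (1.22-1.43) and Fli1 1.31 (1.18-1.45), both short of the fold, while Sox17 had 0.757 (0.643-0.888) and Sox18 0.872 (0.789-0.963). The median log2 ratio was -0.10 for the members and -0.08 for all genes.

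Capillary cells were the shallowest P6 cluster, with a median of 3204 UMIs in 149 cells. None of the 10 members passed the fold against Cap-Venous cells, whereas 19.3% of 6854 genes were higher and 9.69% lower. Fli1 had 1.36 (1.175-1.57), Ets1 1.23 (1.09-1.38) and Etv6 0.679. The median log2 ratio was 0.13 for the members and 0.07 for all genes.

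Relatives and known target groups of the factors moved with age in different ways, beside 18.8% of all genes that rose, 11.8% that fell and a median log2 ratio of 0.12. Of 20 other ETS genes 11 had enough UMIs, of which 1 rose and 4 fell (median log2 -0.06). Those that fell included Etv4, Etv1 and Etv5, of the PEA3 group that answers to growth factor signals, at ratios of 0.0602, 0.311 and 0.354, and Elf4 at 0.224, while Elf1 rose at 1.66. Of 16 other SOX genes 5 were tested, 2 rose (Sox9 at 4.09 and Sox4 at 1.59) and 1 fell (Sox11 at 0.205), with a median of 0.30. Among 8 partners and relatives of Tal1, listed below as Tal1 partners, 3 rose and 0 fell (median 0.50). These were Cbfa2t3 at 1.84, Gata2 at 1.83 and Lyl1 at 1.81, beside Tal1 itself at 0.982. Of 14 other endothelial transcription factors 11 were tested and 7 rose (median 0.62), led by the flow-responsive Klf2 at 3.47 and Klf4 at 3.17.

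Genes with known ETS-dependent or SoxF-bound control regions rose or stayed within the fold. Of 13 pan-endothelial genes with ETS-dependent control regions 4 rose and 0 fell (median 0.38), with Nos3 at 1.66 highest and Tek at 0.918 lowest. Of 6 genes with SoxF-bound control regions 5 were tested, of which Cldn5 at 1.78 and Vcam1 at 1.76 rose, while Dll4 had 0.854 and Notch1 1.24 (median 0.31). Of 16 arterial genes 15 were tested, 5 rose and 3 fell (median 0.31). Eln at 3.63, Mgp at 2.91 and Hey1 at 1.91 led, and the connexin genes Gja5 at 0.399 and Gja4 at 0.507 and the chemokine receptor gene Cxcr4 at 0.428 fell. Kdr, Dll4, Notch1, Hey1, Hey2 and Prox1 stood in more than 1 list.

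The arterial clusters were named by genes that include Efnb2, Jag1, Hey1, Gja4, Gja5, Bmx and Sox17, and the venous ones by Nr2f2 among others, so the values of those genes and of the lists that hold them follow from the naming. Between arterial and Cap-Venous cells at P6, where 13.2% of all genes were higher and 8.11% lower, the same lists gave 1 of 5 other ETS genes higher (Elf1 at 2.08), 2 of 3 other SOX genes (Sox13 at 2.575 and Sox4 at 1.56) and 2 of 8 Tal1 partners (Gata2 at 2.34 and Cbfa2t3 at 2.01), with none lower. Other endothelial transcription factors had 6 of 10 higher, with Hey1 at 15.45, and 1 lower, the venous factor Nr2f2 at 0.493. Of the ETS-dependent genes 4 of 13 were higher, of the SoxF-bound genes 1 of 4 (Vcam1 at 10.6), and of the arterial genes 13 of 14, with Bmx at 63.9. Median log2 ratios were 0.36, 0.64, 0.29, 0.83, 0.43, 0.48 and 2.85 in this order of lists.

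At P15, where 10.2% of all genes were higher and 8.96% lower and the naming bears on the same lists, the arterial comparison gave 0 of 4 other ETS genes, 0 of 1 other SOX gene and 1 of 7 Tal1 partners higher (Gata2 at 1.96), and none of these lower. Other endothelial transcription factors had 4 of 10 higher and Nr2f2 lower at 0.327. The ETS-dependent genes had 3 of 13 higher, with Flt1 at 1.83, and Vwf lower at 0.479, while 1 of 3 SoxF-bound genes (Dll4 at 1.845) and 10 of 12 arterial genes were higher, with Gja4 at 32.15. Median log2 ratios in the same order were 0.05, 0.37, 0.12, 0.31, 0.09, 0.30 and 2.02.

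Genes with a pattern like that of a member were sought over the 9 P6 clusters among 3095 genes, by Pearson r of log2(CPM + 1). These clusters share a library and differ in depth, so r is a description. The ephrin gene Efna1 (0.987), Tgfb2 (0.976) and Hmg20b (0.9735) were most like Sox17. Sox18 was nearest to Grrp1 (0.967), Rabac1 (0.952) and Itm2b (0.9498), and Sox7 to Pls3 (0.9445) and Ier5 (0.941). For Erg the genes were Ehd2 (0.927), Hmgn3 (0.926) and Maged2 (0.922), and for Fli1 Znrf3 (0.951), R3hdm1 (0.948) and Taok2 (0.938). Ets1 was nearest to Dlc1 (0.952), Magi1 (0.948) and Lrp4 (0.9335), and Ets2 to Cdipt (0.929), Gimap6 (0.916) and N4bp3 (0.9005). Elk3 followed Rapgef5 (0.993), Lpp (0.958) and Fyn (0.955), Etv6 followed Dcaf8 (0.941), Sh3bp4 (0.9155) and Wwc2 (0.913), and Tal1 followed Gm43019 (0.948), Cxxc1 (0.946) and Mindy2 (0.9375). Of these only Znrf3, R3hdm1, Cdipt, Rapgef5 and Lpp were also among the nearest 3 both by Spearman rank and without the Venous cluster. Etv6 had only 4 UMIs in Venous and 5 in Arterial cells, and Tal1 only 6 and 2, so that their r rests on few counts.

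Among the members themselves the SoxF genes resembled each other over these clusters, with r of 0.9501 for Sox7 and Sox18, 0.886 for Sox7 and Sox17 and 0.833 for Sox17 and Sox18. Fli1 and Ets1, neighbours on chromosome 9, had 0.913. Erg had 0.828 with Sox17, -0.317 with Fli1 and -0.475 with Ets1, although even its extreme clusters overlapped in level, so that its r rests on differences within counting error.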

How the data were processed

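The authors deposited counts of UMIs per gene and barcode for each library, not normalized. The submitters' processing notes name Seurat 3.0 and mm10. The aligner is not given in the sources used here. Cells with 200 to 3500 genes passed where mitochondrial UMIs were 5% or less and Hbb-bt, Neurod1 and Cd63 had none. UMIs were summed over cells and divided by total UMIs. Coordinates came from GENCODE M21 on GRCm38, matched by gene identifier without its version, which differs for Erg and Ets2. Labels were predicted from 15 neighbours on 13 principal components without the members, and over 5 folds matched the known label in 77.8% of cells at P6 and 82.0% at P15. Named were the 10 members, the 3 highest and 3 lowest of each of 7 gene lists, the 3 genes most like each member, and cell type markers, of which some values are not reported here. The members and lists were chosen with earlier results of these data known. Alternatives covered cells, labels, depth, scaling, weight of cells, pooled clusters and the floor. Cells of each sex were added after seeing the data. Steps were tested on simulated data with Python 3.11.15, scanpy 1.11.5, scikit-learn 1.9.0, pandas 2.3.3, scipy 1.17.1 and numpy 2.4.6.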

Additional observations from a re-analysis of the deposited data

Results flagged for a closer look

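For 5 members the ratio of arterial to Cap-Venous CPM lay above 1 at P6 and below 1 at P15, with the study's labels, and the change of side was not tested. The P15 intervals of Sox7, Erg, Ets2 and Tal1 included 1, as did the P6 intervals of Erg, Ets2, Elk3 and Tal1, so no member had intervals on opposite sides of 1. Sox7 had 3.09 at P6 and 0.851 at P15. Erg had 1.18 and 0.675, and Ets2 had 1.32 and 0.739. The ratio of Elk3 was 1.03 and then 0.654. Tal1 had 1.15 and then 0.744, the latter from 12 and 35 UMIs. With predicted labels the P15 ratio was 1.01 for Sox7, 1.02 for Erg and 1.045 for Tal1, so that the change of side was lost. It was 0.818 for Ets2 and 0.755 for Elk3. With Arterial cells alone, however, the P6 ratio was 0.787 for Ets2, 0.946 for Elk3 and 0.267 for Tal1, already below 1 at P6. For Sox7 and Erg it stayed above 1, at 2.59 and 1.44.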

How the results depend on the processing

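Of 549 values of single members under alternatives, 504 lay inside the counting interval of the value reported, 45 moved outside it and 0 turned a called direction around. The age calls of Sox17, Sox18, Erg and Ets2 held under all 9 alternatives, with ratios of 1.60 to 2.38, 0.247 to 0.301, 1.53 to 2.32 and 1.51 to 1.97. Ets1 passed the fold with every barcode (1.52) and Sox7 in cells with Xist and no Y-linked UMI (1.66). The counts of members that were higher kept within 1.5-fold of those reported, and the counts that were lower moved as follows, where the cause was not tested. In Proliferative cells, in place of 3, the count was 4 with predicted labels and 4 with each cell given the same weight (Ets2 at 0.644 and 0.661), and 2 at equal depth (without Sox7 at 0.679). In the P6 arterial comparison 1 member was lower with Arterial cells alone (Tal1 at 0.267) in place of 0. In the P15 arterial comparison, in place of 1, the count was 0 with predicted labels and 0 at equal depth, 2 with labelled cells that passed the filter, 2 under median-ratio scaling, 2 with no floor, 3 with each cell given the same weight and 5 with Arterial cells alone. In Stalk cells it was 0 with predicted labels in place of 1, while Erg passed the fold at equal depth (0.567), and in Capillary cells it was 1 under median-ratio scaling (Etv6 at 0.644) in place of 0. Depth limits Etv6, Tal1 and, among P15 clusters, Sox7 and Erg, since 11 P15 Arterial cells were labelled and members below 50 UMIs have wide intervals. No paired analysis was possible because each age has 1 library.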

Other observations

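The gene lists around these factors also differed between the other P6 clusters. In Proliferative cells, where 13.5% of all genes were lower and 10.3% higher, 10 of 15 arterial genes were lower than in the other labelled cells (median log2 -1.10), with Hey1 at a ratio of 0.0827. The other labelled cells included the arterial clusters, which were named by genes of this list, Hey1 among them. The values of this list thus follow in part from the naming. The other SOX genes had 3 of 5 lower (median -0.61; Sox9 at 0.366) and Sox11 higher at 1.85, and Tal1 partners had Lyl1 at 0.486 and Lmo2 at 0.629 lower among 8 (median -0.45). Among other ETS genes Etv4 was higher at 1.65 and Elk1 lower at 0.272 of 11 tested (median 0.03). Other endothelial transcription factors had 3 of 10 lower (median -0.33), the ETS-dependent genes 1 of 13 (median -0.21; Vwf at 0.622) and the SoxF-bound genes 2 of 5 (median -0.50; Vcam1 at 0.415).

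Tip cells, where 6.55% of all genes were higher and as many lower than in Cap-Venous cells, had 8 of 10 arterial genes higher (median log2 0.77), led by Cxcr4 at 3.86, and Dll4 at 1.68 was the 1 of 3 SoxF-bound genes that was higher (median 0.13). Lyl1 at 0.462 and Lmo2 at 0.623, from the list of Tal1 partners, were lower there, with a median of -0.27 over 8. The flow-responsive Klf4 at 0.369 and Klf2 at 0.557 were lower too, with Nr2f2 at 0.645 as the third of 10 (median -0.24) and Hey1 higher at 3.02. Klf2 and Nr2f2 were among the genes used to name the clusters. So were Efnb2, Jag1, Hey1, Gja4, Gja5 and Bmx of the arterial list. The values of these genes and of that list against Cap-Venous cells thus follow in part from the naming. No other ETS gene of 5 (median 0.02) and no other SOX gene of 3 (median 0.10) passed the fold, and of 13 ETS-dependent genes Vwf was higher at 1.80 and Tek lower at 0.666 (median 0.13).

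Stalk cells, where 4.48% of all genes were higher and 5.27% lower, moved little, with Jag1 at 4.19 the only arterial gene of 10 past the fold and Sox11 at 1.86 the only other SOX gene of 4. None of the other 5 lists had a gene past it there, and the 7 medians lay between -0.30 and 0.06. In Capillary cells, where 19.3% of all genes were higher and 9.69% lower, 10 of 13 ETS-dependent genes were higher (median log2 0.65; Vwf at 3.35, Tek at 2.13, Robo4 at 2.10) while no member passed the fold. These cells had a median of 2.508% mitochondrial UMIs against 1.207% in Cap-Venous cells, and 30.2% against 15.7% held Xist and no Y-linked UMI. Their proliferation markers summed to 504.9 against 100.7 CPM, and the part of these differences in the ratios was not tested. Higher there were also 6 of 9 arterial genes (median 1.085; Unc5b at 3.23), 2 of 5 other ETS genes (Elf1 at 1.80 and Elk4 at 1.65; median 0.07), 3 of 9 other endothelial transcription factors (median 0.31; Foxc1 at 1.80), Tcf12 at 1.76 among 8 Tal1 partners (median -0.44), Sox11 at 1.82 among 3 other SOX genes (median -0.18) and Kdr at 1.92 among 3 SoxF-bound genes (median 0.30). Kdr was among the genes that named this cluster. No gene of these lists was lower in Capillary cells.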
